A study of Mus musculus with 4 samples.

Results

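The genes described here are 8 textbook targets of the nuclear receptor PPARδ: Pdk4, Angptl4, Cpt1a, Cpt1b, Ucp2, Ucp3, Slc25a20 and Lpl. They were chosen by name, as every probe set (a group of short array probes read out as 1 intensity) that the platform's gene table assigned to one of them. Of the 22690 probe sets on the array, 12 carried the name of a single one of these genes, and together they measured 6 of the 8 genes. Ucp2 was named by no probe set of that table and was not analysed here. Cpt1b was named on 1 probe set that also listed other genes, 3 symbols in all, so no value is given for it.

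Mammary glands came from nulliparous females of the FVB background. The 4 groups were wild-type littermates on standard chow, MMTV-PPARd transgenic mice on standard chow, wild-type mice on chow with GW501516 and MMTV-PPARd transgenic mice on chow with GW501516, with feeding for 1 week. Ages were given only as matched. GW501516 is a synthetic agonist of PPARδ. Its content in the chow was 0.005% in the labels' protocol and source names and 0.001% in a treatment tag. The transgene places Ppard under the promoter of the mouse mammary tumour virus, which is active mainly in mammary epithelium. The whole gland also holds adipocytes, blood vessels and immune cells, and in such bulk tissue fewer cells of a type and less RNA per cell cannot be told apart. Each group was 1 pool of RNA from 5 mice on 1 array, so no difference here has a replicate check, and no test, standard error or p-value could be computed.

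PPARδ binds DNA as a heterodimer with the retinoid X receptor, at direct repeats of a short half-site, and fatty acids and synthetic ligands turn bound receptor from repression to activation. In muscle, fat and liver it is known for raising genes that move the cell towards burning fatty acids. The genes here cover the main steps: Lpl releases fatty acids from circulating triglyceride and Angptl4 inhibits Lpl; Cpt1a and Slc25a20 carry the fatty acid into the mitochondrion; Pdk4 holds back pyruvate oxidation; and Ucp3 is a carrier of the mitochondrial inner membrane. Most of them also answer to other PPARs, to glucocorticoids and to fasting.

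Intensities were on a linear scale, with each array scaled to a common mean, and readings under a floor of 20.5, which is the 25th percentile of the whole data set, were raised to it before log2 was taken. Of 12393 genes with a probe set of their own, 7835 reached 139, the median of all values, on at least 1 array, and formed the background. All 6 measured target genes passed this filter. Their highest probe sets exceeded 139 on all 4 arrays, so none passed only through 1 group. The targeted gene, Ppard, read 2.1 and 1.5 in wild type on chow and on GW501516, both under the floor, and 1943 and 4224 in transgenic mice on chow and on GW501516. The array of transgenic mice on chow stood apart from the other arrays in its control probes: the spiked BioB control read 32.4 there and 438 to 519 elsewhere, and the middle Gapdh control read 2986 there and 7171 to 10826 elsewhere. GW501516 in wild type, the transgene on GW501516 and the combined comparison do not use that array. Markers of the labelled tissue were present: all 14 measured luminal epithelial genes, all 9 basal genes and all 11 white adipocyte genes read above the floor on every array. Immune readings differed between the pools: T cell, B cell, macrophage and endothelial lists had median log2 differences of -4.09, -3.70, -0.24 and 0.00 for GW501516 in wild type and of -2.24, -2.75, 0.35 and 0.23 for GW501516 in transgenic mice. For the transgene they were -1.54, -0.99, -0.79 and -0.07 on chow and 0.00, 0.00, -0.17 and 0.07 on GW501516. On the arrays of wild type and transgenic mice on GW501516, 4 and 5 of 10 T cell genes and 2 and 3 of 5 B cell genes lay below the floor, so the last T and B cell medians of 0.00 rest on genes raised to it on both.

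By the probe set with the highest mean for each gene, Ucp3 was the only measured target gene that differed by 2-fold or more in any comparison. It was highest where transgene and agonist came together, and the other 5 genes differed by at most 1.60-fold in every comparison between arrays. On GW501516 in wild type, 0 of 6 genes were at least 2-fold higher or lower, against 3.18% of all 7835 genes higher and 3.25% lower. On GW501516 in transgenic mice 1 of 6 was higher and 0 lower, against 3.98% and 4.07% of all genes. For the transgene on chow the counts were 0 and 0, against 5.46% and 3.7%. For the transgene on GW501516 they were 1 higher and 0 lower, against 2.82% and 1.19%. In the combined comparison, which sets transgenic mice on GW501516 against wild-type mice on chow, 1 was higher and 0 lower, against 5.5% and 4.21%. For the difference between the GW501516 effects in transgenic and wild-type mice, 0 of 6 passed 2-fold either way, against 4.42% and 5.25%. With 6 genes, a single gene is more than any of these percentages, and nothing is read from the counts beyond which gene it was.

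The differences did not share a direction across the 6 genes, Ucp3 included. Of the 6, 5 were above 0 for GW501516 in wild type, 3 for GW501516 in transgenic mice and 3 for the transgene on chow. For the transgene on GW501516 4 were above 0, and in the combined comparison 4. Over all genes the shares above 0 were 45.0%, 46.8%, 51.8%, 50.2% and 47.7% in that order. The median log2 differences of the 6 genes were 0.16, 0.13, 0.064, 0.084 and 0.17 in the same order, beside -0.037, -0.034, 0.020, 0.0016 and -0.023 over all genes. As a measure of technical scatter, the differences read by probe sets of the same gene varied around each other with an SD between 0.35 and 0.45 (log2, 2534 genes) in the comparisons between arrays. This scatter leaves out any variation between pools. The comparisons also share arrays: the transgenic chow array enters the transgene effect on chow and, with opposite sign, the GW501516 effect in transgenic mice.

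**Figure D1:**
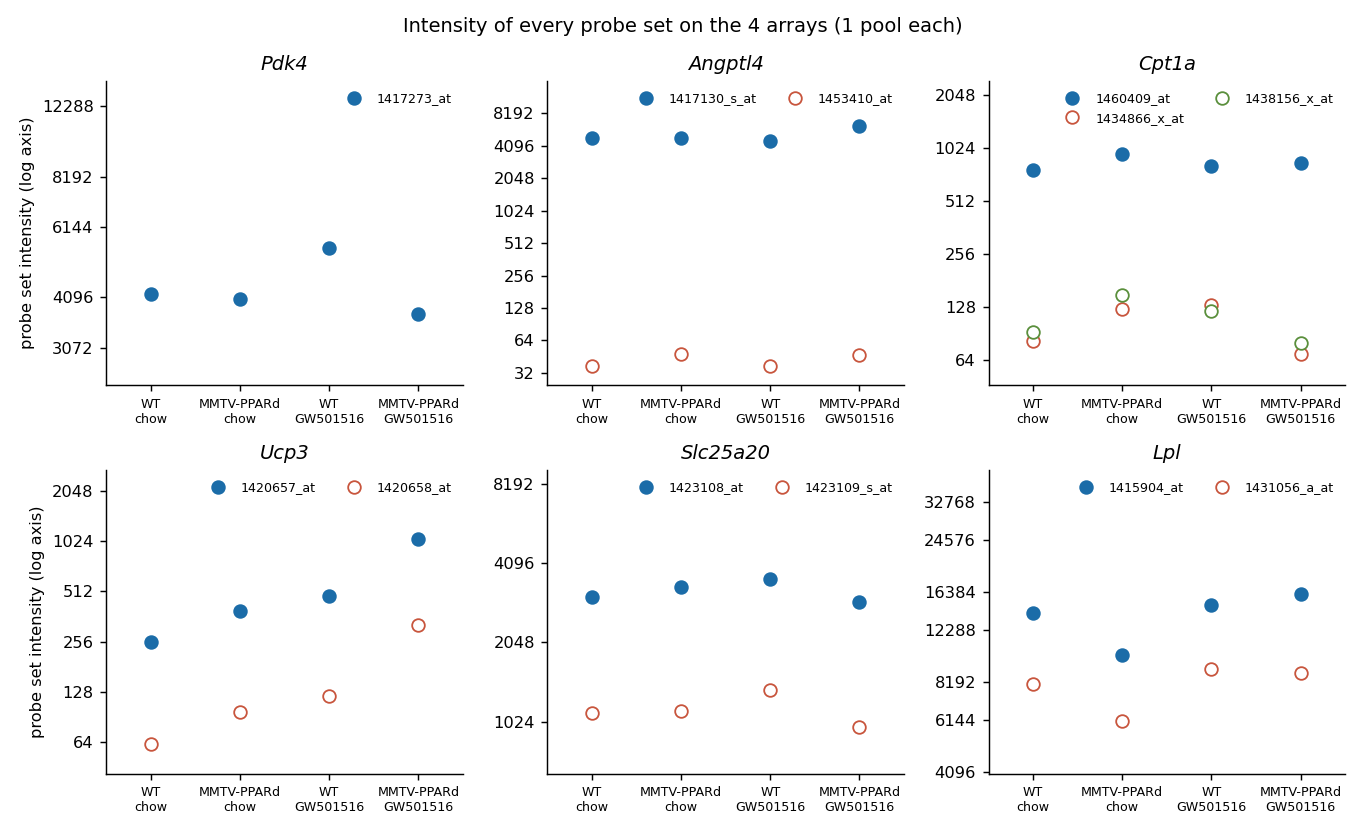
Intensity of every probe set of the 6 measured genes (log scale, own axis for each gene) on the arrays of the 4 groups. Filled points are the probe set with the highest mean for the gene, and open points are its other probe sets. Both Ucp3 probe sets climb to their highest value in transgenic mice on GW501516, while the other 5 genes stay within a narrow band by their highest probe set.

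**Figure D2:**
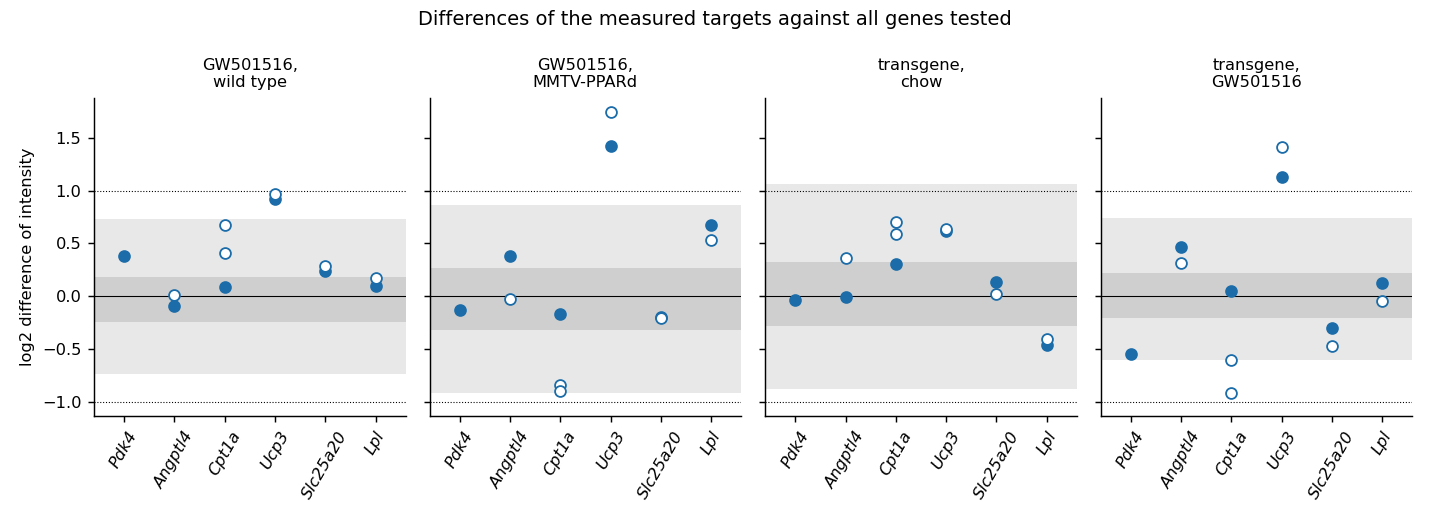
Log2 difference of each probe set of the 6 genes in the 4 comparisons that differ by 1 factor. Filled points are the highest probe set of the gene and open points its others. Grey bands hold the central 50% and 90% of the 7835 background genes and dotted lines mark 2-fold. The Ucp3 points lie above the central 90% for GW501516 in both genotypes and for the transgene on GW501516, and inside it for the transgene on chow.

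The promoters of Ucp3, the gene that passed 2-fold, and of Pdk4 and Cpt1a, which did not, are shown to set the letters PPAR recognises beside these readings. They were taken from RefSeq on GRCm38.p6, from 250 bases before to 50 bases after the start site, and are written in the direction of transcription. Capitals mark the half-site AGGTCA or its reverse TGACCT.
Ucp3 promoter, chr7:100472741-100473040, plus strand: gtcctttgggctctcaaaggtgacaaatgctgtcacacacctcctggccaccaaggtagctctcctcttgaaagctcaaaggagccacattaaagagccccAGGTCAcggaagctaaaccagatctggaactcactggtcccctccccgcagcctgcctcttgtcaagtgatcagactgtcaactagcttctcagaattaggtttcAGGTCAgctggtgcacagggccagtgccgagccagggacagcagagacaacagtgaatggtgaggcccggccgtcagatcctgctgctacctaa
Pdk4 promoter, chr6:5496229-5496528, minus strand: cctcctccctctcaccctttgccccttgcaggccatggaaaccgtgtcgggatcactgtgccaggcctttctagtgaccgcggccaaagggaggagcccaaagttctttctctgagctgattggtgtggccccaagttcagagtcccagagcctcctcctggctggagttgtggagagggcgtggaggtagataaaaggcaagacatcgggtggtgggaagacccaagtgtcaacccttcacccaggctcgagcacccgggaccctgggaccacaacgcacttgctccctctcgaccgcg
Cpt1a promoter, chr19:3323051-3323350, plus strand: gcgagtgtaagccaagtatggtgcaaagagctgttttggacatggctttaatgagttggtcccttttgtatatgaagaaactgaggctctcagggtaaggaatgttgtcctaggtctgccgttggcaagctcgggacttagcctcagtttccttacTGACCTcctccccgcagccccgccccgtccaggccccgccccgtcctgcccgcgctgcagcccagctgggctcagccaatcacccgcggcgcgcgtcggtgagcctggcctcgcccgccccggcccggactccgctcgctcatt
The Ucp3 window held the half-site at 2 places, beginning -149 and -44 bases from the start site, on the strand of the gene. The Cpt1a window held 1 on the opposite strand, at -94, and the Pdk4 window held none. A window for Slc25a20, the other measured gene with a promoter in that table, also held none. Searched on both strands, this half-site occurred in 16.3% of 32851 mouse promoters of the same length, so its presence is common. The direct repeat with 1 base between, AGGTCANAGGTCA, was in none of these windows and in 0.0396% of all promoters, and the looser AGGNCANAGGNCA was in none of them and in 0.381%. No match says only that these letters are not in these 300 bases, and known PPAR sites often lie outside such windows.

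Ucp3 is an inner-membrane carrier found mainly in skeletal muscle and brown fat, where its level follows fatty acid supply. Its highest probe set read 256 in wild type on chow, 393 in transgenic mice on chow, 482 in wild type on GW501516 and 1055 in transgenic mice on GW501516. The second probe set read 62.1, 96.5, 121 and 322 on the same arrays. Both gave the same order of the 4 arrays, with wild type on chow lowest and transgenic on GW501516 highest.

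By the highest probe set, Ucp3 was 1.89-fold higher on GW501516 in wild type (log2 0.92) and 2.68-fold higher on GW501516 in transgenic mice (log2 1.42). The second probe set gave 1.95-fold and 3.34-fold. The transgene went with 1.54-fold more Ucp3 on chow and 2.19-fold more on GW501516, and with 1.55-fold and 2.66-fold by the second probe set. Wild type on chow and transgenic on GW501516 differed 4.13-fold, and 5.19-fold by the second probe set. The GW501516 effect was larger in transgenic than in wild-type mice by 0.51 (log2), or 0.77 by the second probe set. The scatter between probe sets of a gene in this difference of effects had an SD of 0.54, and the difference was not tested. Among the 7835 genes, 280 (3.57%) had a difference at least as high as that of Ucp3 for GW501516 in wild type, 168 (2.14%) in transgenic mice, 890 (11.4%) for the transgene on chow and 173 (2.21%) for the transgene on GW501516. The Ucp3 reading on the transgene alone was thus well inside the range of other genes.

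The genes whose 4 readings ran most like those of Ucp3 were Duoxa1, a maturation factor of the dual oxidases, Capn5, a calpain protease, and Slc22a18, a membrane transporter. Likeness was the distance between log2 profiles centred on their mean over 4 arrays, among 7744 genes. The distances were 0.26, 0.30 and 0.38. Duoxa1 read 222, 363, 356 and 973 in the order wild type on chow, transgenic on chow, wild type on GW501516 and transgenic on GW501516.

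Since skeletal muscle makes Ucp3, muscle markers were read beside it. All 20 measured muscle genes, Acta1, Mylpf and Myl1 the brightest among them, were at least 2-fold higher on GW501516 in both genotypes. For the transgene 15 of 20 were so on chow and 0 on GW501516. Over all genes the shares were 3.18% (wild type) and 3.98% (transgenic) for GW501516, and 5.46% (chow) and 2.82% (GW501516 diet) for the transgene. The summed intensity of the muscle genes was 20422 in wild type on chow, 47100 in transgenic on chow, 168500 in wild type on GW501516 and 161305 in transgenic on GW501516. Ucp3 and the muscle genes thus had the same low array, wild type on chow, and both were higher on GW501516. They parted between the GW501516 arrays, where the muscle genes had a median log2 difference of -0.15 between genotypes and Ucp3 one of 1.13. The part of muscle RNA in the Ucp3 readings was not tested.

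Brown adipocyte genes, from the other main tissue of Ucp3, had a summed intensity of 18970, 19724, 21397 and 20277 over 8 genes, in the same order of arrays. Their median log2 differences were 0.23 and -0.18 for GW501516 (wild type, then transgenic) and 0.26 and -0.43 for the transgene (chow, then GW501516). At least 2-fold higher and lower were 2 and 0, 1 and 2, 2 and 0, and 1 and 2 of the 8 genes in these comparisons. Over all genes the shares were 3.18% and 3.25%, 3.98% and 4.07%, 5.46% and 3.7%, and 2.82% and 1.19%. The 8 brown adipocyte genes did not share an order of arrays. Cidea, a lipid droplet protein that is also on the list of other PPAR targets, read 5806, 4721, 5537 and 9454, and Slc27a2, a fatty acid transporter and acyl-CoA synthetase, read 266, 573, 273 and 609. Both were highest where Ucp3 was highest. For the transgene on GW501516, however, 2 of the 8 genes were above 0 and 6 below. Cox8b read 6911, 6298, 6684 and 5486, and Elovl3, with the largest difference of the list, read 95.3, 839, 360 and 89.2. Both of these were lowest where Ucp3 was highest. Ucp1, the brown fat uncoupling protein, read 3316, 4658, 5046 and 2264 and was also lowest there. It was 2.06-fold lower on GW501516 in transgenic mice and 2.23-fold lower with the transgene on GW501516. Of 9 measured mitochondrial carriers related to Ucp3, it was the only one past 2-fold in any of the 4 comparisons that differ by 1 factor. Slc25a4, the muscle form of the ADP/ATP carrier, read 5624, 5777, 10233 and 9290, and was thus high on both GW501516 arrays. Milk protein and alveolar genes, a sign of the epithelium that carries the transgene, were mostly higher with the transgene. On GW501516, 11 of 14 passed 2-fold upwards and 0 downwards, where all genes had 2.82% and 1.19%. On chow 8 passed 2-fold upwards and 1 downwards, where all genes had 5.46% and 3.7%, and 4 of 14 were below 0. The gene past 2-fold lower was Lalba, which encodes the milk protein alpha-lactalbumin, with 625, 159, 1768 and 10325. The summed intensity of the 14 genes was 29923, 65405, 52079 and 128404. Their sum and Ucp3 were both highest in transgenic mice on GW501516, and their part in the Ucp3 reading was not tested.

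Pdk4 phosphorylates and switches off the pyruvate dehydrogenase complex, which spares glucose when fat is burned, and it is among the targets most used to show PPARδ activity. It read 4172 in wild type on chow, 4060 in transgenic on chow, 5446 in wild type on GW501516 and 3719 in transgenic on GW501516. Wild type on GW501516 was highest and transgenic on GW501516 lowest, and the whole span was 1.46-fold. Pdk4 was 1.31-fold higher on GW501516 in wild type (log2 0.38) and 1.09-fold lower in transgenic mice (log2 -0.13). It differed by -0.04 (log2) with the transgene on chow, which became 0.04 under quantile normalization, and by -0.55 with the transgene on GW501516. Pdk4 was already bright on chow in both genotypes. It has 1 probe set, so no second reading of these differences exists on this array. The pools also differed in the muscle markers given above, whose summed intensity was 20422, 47100, 168500 and 161305 in the same order of arrays. The part of muscle RNA in the Pdk4 readings was not tested.

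The rest of the pyruvate dehydrogenase system also stayed under 2-fold in these comparisons. Of 8 measured genes of this list, 0 passed 2-fold in the 4 comparisons that differ by 1 factor. Of all genes, 1.19% to 5.46% did in each direction. The log2 medians of the 8 genes were 0.32 (wild type) and 0.13 (transgenic) for GW501516 and -0.26 (chow) and -0.45 (GW501516 diet) for the transgene. Pdk1, a kinase of the same family known for its answer to low oxygen, read 212, 389, 335 and 200, and was the only gene of the list past 2-fold in the difference of GW501516 effects, at -1.62. Pdk2, the broadly expressed kinase, read 123, 87.4, 213 and 160, being higher on GW501516 in both genotypes. Dlat and Pdhb, which encode subunits of the complex itself, read 2170, 1928, 2800 and 1743, and 6733, 5054, 8389 and 5346. Both were thus highest in wild type on GW501516, as Pdk4 was.

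Glucocorticoids also raise Pdk4, so 12 genes of the glucocorticoid response were read with it. For GW501516 in wild type 10 of 12 were above 0 with a median of 0.52 (log2), against 45.0% of all genes above 0. In transgenic mice 2 of 12 were, with a median of -0.39, against 46.8% of all genes. For the transgene on GW501516 0 of 12 were above 0, against 50.2% of all genes, and the median was -0.52. At least 2-fold lower in that comparison were 3 of 12, against 1.19% of all genes. Fkbp5, a chaperone that serves as a common glucocorticoid readout, read 832, 984, 1341 and 685. Like Pdk4 it was highest in wild type on GW501516 and lowest in transgenic mice on GW501516. Cebpd, a transcription factor of stress and fat cell formation, read 1311, 1234, 2181 and 786 in the same pattern. Mt2, a metallothionein, read 2467, 2575, 3312 and 1276, and Errfi1 had this pattern too. Other genes of the list did not have it. Dusp1, with the largest difference of the list, read 802, 2355, 1265 and 1142 and was highest in transgenic mice on chow. Sgk1 was also highest there, and Klf15 was highest in wild type on chow. The GW501516 effect was lower in transgenic than in wild-type mice for all 12 genes, with a median of -1.0, and Pdk4 had -0.51. The part of glucocorticoids in the Pdk4 reading was not tested.

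**Figure D3:**
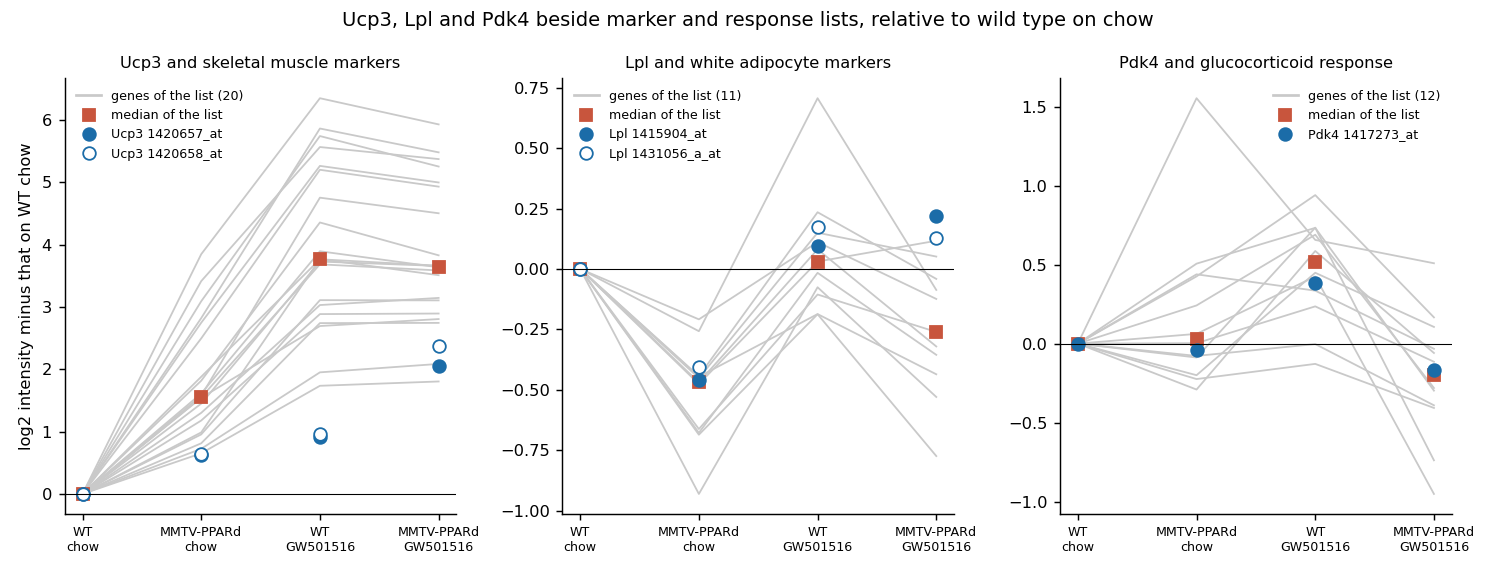
Ucp3, Lpl and Pdk4 beside gene lists of cell types or pathways that also carry them, as the log2 level on the 4 arrays relative to wild type on chow. Grey lines are the genes of the list, squares their median, and circles the probe sets of the target gene. Ucp3 is highest in transgenic mice on GW501516 while the muscle median is nearly level between the GW501516 arrays. Lpl and the white adipocyte median are both lowest in transgenic mice on chow. Pdk4 and the glucocorticoid median are both highest in wild type on GW501516, though single genes of that list are not.

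Cpt1a makes the acylcarnitine that commits a long-chain fatty acid to mitochondrial oxidation, and Slc25a20 exchanges that acylcarnitine across the inner membrane. Neither reached 2-fold in any comparison by its highest probe set. Cpt1a read 765 in wild type on chow, 943 in transgenic on chow, 810 in wild type on GW501516 and 836 in transgenic on GW501516, so transgenic on chow was highest. Its log2 differences were 0.08 (wild type) and -0.17 (transgenic) for GW501516, and 0.30 and 0.05 for the transgene on chow and on GW501516.

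The remaining Cpt1a probe sets read another pattern. They gave 82.0, 124, 131 and 69.1, and 91.7, 149, 122 and 79.8, so both were lowest in transgenic mice on GW501516. For GW501516 in transgenic mice they differed by -0.84 and -0.90 (log2), where the highest probe set gave -0.17. Their GW501516 effects differed between the genotypes by -1.51 and -1.31, past 2-fold, against -0.26 by the highest probe set. Both are of the x_at kind, whose probes can match other sequences, and both were dim. The highest probe set, of the plain at kind, was used for the counts.

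Slc25a20 read 3036, 3328, 3572 and 2906 in the order wild type on chow, transgenic on chow, wild type on GW501516 and transgenic on GW501516. Its second probe set read 1108, 1122, 1349 and 974. By both, wild type on GW501516 was highest and transgenic on GW501516 lowest, the order that Pdk4 also had at its ends. The GW501516 effect was 0.23 (log2) for wild type against -0.20 for transgenic mice, and 0.28 and -0.20 by the second probe set.

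Among 7 measured genes around the carnitine shuttle, 0 passed 2-fold in the comparisons that differ by 1 factor. Of all genes, 1.19% to 5.46% did in each direction. Cpt2, which rebuilds acyl-CoA inside the mitochondrion, read 2021, 1910, 2226 and 1704, again highest in wild type on GW501516 and lowest in transgenic mice on GW501516. Crat, the carnitine acetyltransferase, read 916, 624, 1186 and 778. Muscle markers were higher on GW501516 in both genotypes, and the part of muscle RNA in the Slc25a20, Cpt2 and Crat readings was not tested. Of the 15 genes of mitochondrial fatty acid oxidation, the pathway that the shuttle feeds, all were measured and 0 passed 2-fold. Their median log2 differences were -0.03 for GW501516 in each genotype, with a sign that turned with the scaling of the arrays, and -0.22 and -0.20 for the transgene on chow and on GW501516. Acads and Echs1, a short-chain dehydrogenase and an enoyl-CoA hydratase of the pathway, read 1948, 1295, 1669 and 1469, and 4729, 3154, 4305 and 3563. Both were lowest in transgenic mice on chow, and white adipocyte genes were lower there as well.

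Angptl4 is a secreted inhibitor of Lpl, and Lpl is the enzyme that frees fatty acids from lipoproteins at the capillary wall. By their highest probe sets both were bright on all arrays and highest in transgenic mice on GW501516. Angptl4 read 4852 in wild type on chow, 4835 in transgenic on chow, 4556 in wild type on GW501516 and 6285 in transgenic on GW501516, so 3 arrays were close and 1 was higher. It was 1.30-fold higher on GW501516 in transgenic mice (log2 0.38) and 1.38-fold higher with the transgene on GW501516 (log2 0.46). The first of these was 0.24 under quantile normalization and 0.17 with the mean over both probe sets. The differences were -0.09 for GW501516 in wild type and -0.01 for the transgene on chow, the latter with a sign that turned with the scaling. The highest probe set is of the s_at kind, which may match transcripts of several genes. The other probe set read 37.0, 47.5, 37.4 and 46.5, below the filter, and was higher in both transgenic pools.

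Lpl read 13926 in wild type on chow, 10131 in transgenic on chow, 14879 in wild type on GW501516 and 16194 in transgenic on GW501516. The second probe set read 8064, 6079, 9082 and 8804, and both had transgenic on chow as the lowest array. The second probe set was highest in wild type on GW501516, not in transgenic mice on GW501516. Lpl was 1.60-fold higher on GW501516 in transgenic mice (log2 0.68) and differed by 0.10 in wild type. The second probe set gave 0.53 and 0.17. Under quantile normalization the difference in transgenic mice was 0.30. With the transgene the difference was -0.46 on chow and 0.12 on GW501516, and -0.41 and -0.04 by the second probe set. Under quantile normalization they were -0.20 and 0.02. The larger GW501516 difference in transgenic mice and the negative transgene difference on chow thus rest on 1 low reading, that of the array with the low control probes.

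Adipocytes are a main source of Lpl, and their markers were low on that array too. The highest intensity of any probe set was also lowest on the transgenic chow array, at 14309, against 19396 to 21520 on the others. On that array Fabp4 read near this top, at 14186, while Lpl and Adipoq read lower, at 10131 and 9984. All 11 white adipocyte genes were below 0 for the transgene on chow, dimmer ones included. Among the dimmer ones, Lipe had -0.93, Lep -0.68 and Slc2a4 -0.26 (log2), against -0.45 for Fabp4. The part of the lower top in the Lpl and adipocyte readings was not tested. The 11 white adipocyte genes had a summed intensity of 67711 in wild type on chow, 49596 in transgenic on chow, 71370 in wild type on GW501516 and 63823 in transgenic on GW501516. Their median log2 difference was -0.47 for the transgene on chow, against -0.46 for Lpl. Over the settings this list median ranged from -0.54 to -0.32. For GW501516 the list had 0.32 in transgenic mice, against 0.68, and 0.03 in wild type, against 0.10. The list and Lpl parted for the transgene on GW501516, where the list had -0.28, with 10 of 11 genes below 0, and Lpl 0.12. In the combined comparison the list had -0.26 and Lpl 0.22. Fabp4, the adipocyte fatty acid binding protein, read 19396, 14186, 21520 and 20097, and Adipoq, which encodes adiponectin, read 13888, 9984, 14186 and 15057. Both were lowest on the array where Lpl was lowest. Adipoq was the only gene of the list above 0 for the transgene on GW501516. The part of adipocyte RNA in the Lpl reading was not tested.

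Around Lpl, 12 of 21 listed partners and lipases were measured. For GW501516 in wild type 1 was at least 2-fold higher and 0 lower, and 0 passed 2-fold in the 3 other comparisons that differ by 1 factor. The gene was Pcsk6, a proprotein convertase that can cleave lipases and angiopoietin-like proteins, with 235, 420, 557 and 559. Furin, a related convertase, read 390, 328, 416 and 593 and was highest in transgenic mice on GW501516, as Angptl4 was. Lipe, hormone-sensitive lipase, and Apoe, a ligand for uptake of lipoprotein remnants, read 2005, 1052, 1902 and 1389, and 10621, 5908, 10102 and 9257. Both were lowest in transgenic mice on chow.

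Other genes that PPARs are known to raise included some with larger differences than Ucp3, such as Fabp3. Of 28 listed, 19 were measured. At least 2-fold higher were 2 for GW501516 in wild type, 2 for GW501516 in transgenic mice, 5 for the transgene on chow and 4 for the transgene on GW501516. Over all genes 3.18%, 3.98%, 5.46% and 2.82% were. Lower was 1 gene, for the transgene on chow, against 3.7% of all genes. It was Vnn1, with 610 in wild type on chow, 288 in transgenic on chow, 337 in wild type on GW501516 and 514 in transgenic on GW501516. The medians of the 19 genes were 0.13, 0.44, -0.05 and 0.16 (log2). Fabp3, the heart and mammary fatty acid binding protein, read 884 in wild type on chow, 4160 in transgenic on chow, 2436 in wild type on GW501516 and 14533 in transgenic on GW501516. It was thus higher with either factor and highest with both, as Ucp3 was. The combined difference was 16.4-fold for Fabp3 and 4.13-fold for Ucp3. Fabp3 is also a muscle and a mammary epithelial gene.

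Acaa1b, a peroxisomal thiolase, had the same order of arrays as Ucp3 at its ends, with 829, 3838, 1973 and 6432. Acot1, a cytosolic acyl-CoA thioesterase, was highest in transgenic mice on chow, with 657, 4503, 973 and 2494. G0s2, an inhibitor of adipose triglyceride lipase, was higher in both transgenic pools, with 2415, 5534, 1742 and 7507. Plin2, which coats lipid droplets, read 5063, 7680, 5977 and 11490 and stayed under 2-fold in each comparison that differs by 1 factor.

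**Figure D4:**
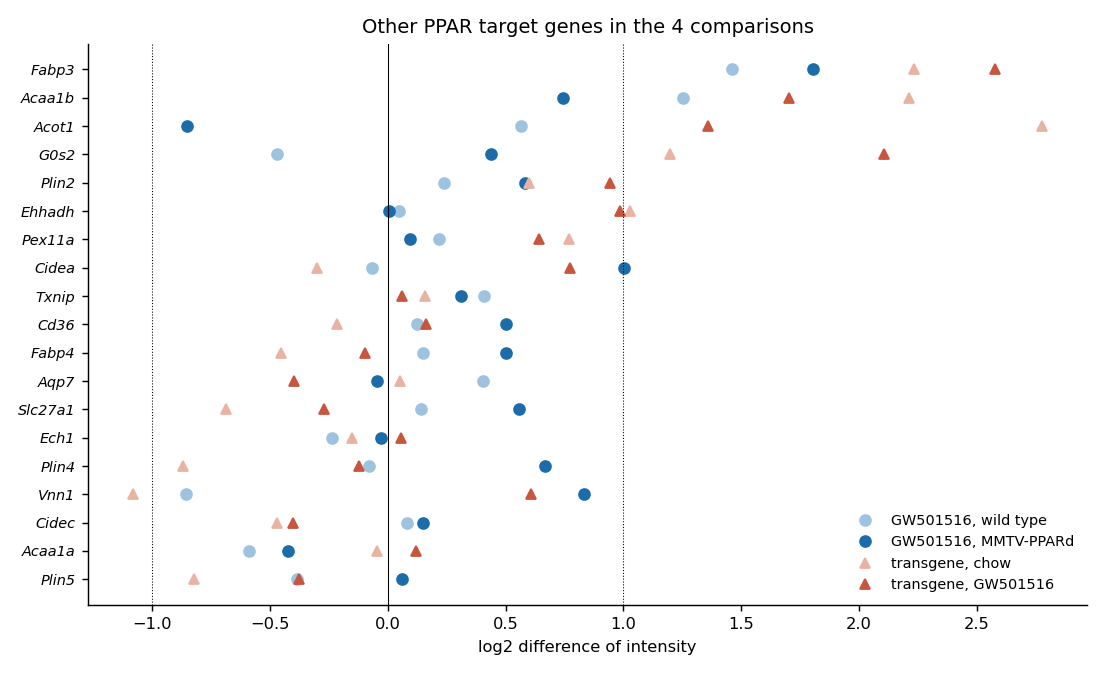
Log2 differences of the 19 other measured PPAR target genes in the 4 comparisons that differ by 1 factor, with circles for GW501516, triangles for the transgene and dotted lines at 2-fold. Fabp3, Acaa1b, Acot1 and G0s2 lie beyond 2-fold with the transgene on both diets.

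Among the receptors, Ppard was 2.17-fold higher on GW501516 than on chow in transgenic mice. This value rests on the transgenic chow array, which had the low control probes. The wild-type readings of Ppard under the floor do not show that it was absent there. Pparg, the receptor of fat cell formation, read 1770, 1101, 1555 and 1035 in the order wild type on chow, transgenic on chow, wild type on GW501516 and transgenic on GW501516, and was lower in both transgenic pools. Ppara, the receptor of hepatic fatty acid oxidation, read 148, 136, 123 and 78.3. Ppargc1a, a coactivator of PPARs that is abundant in muscle and brown fat, read 165, 131, 342 and 207 and was 2.07-fold higher on GW501516 in wild type.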

How the data were processed

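The data were 4 Affymetrix mouse arrays. The deposited values were linear intensities per probe set, from biotin-labelled cRNA made from 6 µg of RNA per the labels' protocols. The mean of each array without the lowest and highest 2% of values was nearly identical, so the arrays deposited by the authors had been brought to 1 trimmed mean. For scanner software, summarisation, detection calls and genome build the entry is: not given in the sources used here.

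Probe sets were named through the platform's gene table, with symbols updated by gene ID. Of 22690 probe sets, 20393 had 1 symbol (20364 matched by gene ID), 691 had several and named no gene, and 1606 were not listed. The probe set with the highest mean was kept for each gene. The floor of 20.5, the filter at 139 and the 2-fold threshold are given with the results. Alternatives changed the scaling, floor, filter and choice of probe set. The computation, in Python 3.11.15 with numpy 2.4.6 and pandas 2.3.3, was tested on simulated data.

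The 8 genes, the 18 gene lists and the alternatives were chosen with earlier results of these data known. Named besides the 8 genes were up to 4 genes of each list with the largest difference, 9 genes named in advance (Ppard, Ppara, Pparg, Pdk2, Cpt2, Ucp1, Gpihbp1, Plin2 and Fkbp5), up to 3 of the brightest genes of each marker list, and the 3 genes most like Ucp3. Lalba and Vnn1 were added, as the genes of their lists at least 2-fold lower with the transgene on chow. Gpihbp1 had no probe set of 1 symbol.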

Additional observations from a re-analysis of the deposited data

Results flagged for a closer look

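Of the 6 genes, all but Ucp3 had effects of opposite sign in the genotypes or on the diets. In each case 1 array stood for a group, and the difference was not tested. The values are the GW501516 effect in transgenic minus that in wild-type mice (log2), beside a scatter between probe sets of a gene with an SD of 0.54.

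For Pdk4 the value was -0.51, with GW501516 above 0 in wild type and below 0 in transgenic mice. For Cpt1a it was -0.26, with the same signs. For Slc25a20 it was -0.43, with opposite signs between the genotypes and also of the transgene effect between the diets. For Angptl4 it was 0.47, with both kinds of opposite sign, of which the transgene effect on chow was -0.01. For Lpl it was 0.58, with a transgene effect below 0 on chow and above 0 on GW501516. The second Lpl probe set gave 0.36, with transgene effects of -0.41 and -0.04, which are both below 0. The Lpl value lay beyond that SD as given, but was 0.22 under quantile normalization and 0.47 with the mean over probe sets. Under alternatives Pdk4 (-0.55, quantile normalization), Angptl4 (0.56, arrays shifted to 1 median) and Cpt1a (-1.03, mean over probe sets) also went beyond it. So did Ucp3, which had no opposite signs. It had 0.60 with arrays shifted to 1 median, 0.56 under quantile normalization and 0.64 with the mean over probe sets.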

How the results depend on the processing

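The values were computed again under 8 alternatives. Those of floor and filter could not move the values of the 6 genes, or their counts and medians. The highest probe sets of these genes read above every floor and filter used, on all arrays. Leaving out s_at and x_at probe sets could not move the value of any gene that remained. With these alternatives included, 279 of 282 values of the 6 genes moved by less than the scatter between probe sets. The 3 others were of Cpt1a with the mean of log2 over all its probe sets: -0.64 for GW501516 in transgenic mice, -0.49 for the transgene on GW501516 and -1.03 for the difference of GW501516 effects. There Cpt1a made 1 gene at least 2-fold lower in the difference of effects, against 0 by the highest probe set. Of 144 counts and medians, 143 stayed within 1.5 times (counts) or the scatter between probe sets (medians), and that count did not; 5 of these medians nevertheless changed sign. Ucp3 ranged from 0.90 to 0.94 for GW501516 in wild type, 1.42 to 1.58 in transgenic mice, 0.54 to 0.63 for the transgene on chow and 1.10 to 1.27 on GW501516. Lpl ranged from 0.30 to 0.75 for GW501516 in transgenic mice and from -0.53 to -0.20 for the transgene on chow, with the smallest sizes under quantile normalization. Values of single genes changed sign too. For the transgene on chow, Pdk4 became 0.04 under quantile normalization. Angptl4 became 0.12 there under quantile normalization and 0.18 with the mean over probe sets. With that mean Cpt1a went below 0 for the transgene on GW501516 (-0.49) and in the combined comparison (-0.11). The 5 sign changes of medians were all in the median of the 6 genes. For the transgene on chow it was -0.0050 with arrays shifted to 1 median. With the mean over all probe sets it was -0.17 for the transgene on GW501516 and -0.12 for the difference of effects. Without s_at and x_at probe sets, which removes Angptl4, it was -0.13 for GW501516 in transgenic mice and -0.26 for the difference of effects. With arrays shifted to 1 median, 55.8% of the genes past 2-fold in the difference of effects were higher, against 45.7%. The number of arrays limits every value. No paired analysis was possible because each group was 1 array.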
